A study of Homo sapiens with 6 samples.

Results

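Of the 591 regions that the 2 deposited tables list as differing between SMARCD2 knockdown and control, 6 have as their nearest gene 1 of 5 genes of immune receptor signalling and antigen presentation: CIITA, CD247, CD5, FYB and STAT4. CIITA, CD5 and FYB had 1 region each among the 323 listed in DMSO, and CD247 (2 regions) and STAT4 (1 region) were among the 268 listed in ATRA. The members were chosen by gene name among regions that the tables hold because their unadjusted p in the authors' test of this same contrast was under 0.005, so their knockdown to control ratios describe these libraries and carry no test here.

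The assay was ATAC-seq: the Tn5 transposase cuts open chromatin and tags it for sequencing, so reads pile up where DNA is accessible. All libraries came from the NB4 line (human acute promyelocytic leukaemia), which all-trans retinoic acid (ATRA) drives to mature into granulocyte-like cells, with 50000 cells per condition per the labels' protocols. The groups were control cells in DMSO (undifferentiated, 1 library), cells with shRNA1 or shRNA2 against SMARCD2 in DMSO (2 libraries, 1 per hairpin), control cells in 1 µM ATRA (differentiated, 1 library) and the same hairpins in 1 µM ATRA (2 libraries). SMARCD2 is a subunit of the SWI/SNF (BAF) chromatin remodelling complexes. The hairpins stood as the replicates of the knockdown, the control had no replicate, and the labels name no separate cultures, so any spread given here may be technical. The DMSO control carries a description that names ATRA, and its title and column name, which give DMSO, were followed. Column names abbreviate the controls of both treatments as scr, and whether they carried a control hairpin was not established here. No region of SMARCD2 was listed (0 in either table). The depletion of SMARCD2 was not checked here.

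T cells read antigen through a receptor that signals by way of the CD3 chains and the CD247 (zeta) chain, whose phosphorylated tails recruit the kinase ZAP70. Adaptors such as FYB link that signal to integrin adhesion, and CD5 tunes it. STAT4 carries the interleukin-12 signal to the nucleus in T and NK cells. CIITA is the coactivator that switches on the MHC class II genes, whose products present antigen to helper T cells. Promyelocytic leukaemia cells are myeloid, belong to none of these lymphoid lineages and characteristically carry little HLA-DR on their surface.

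Of the 6 regions, 5 held more reads per effective library size with both hairpins than in the control, and 1 held fewer. In DMSO all 3 member regions were higher, in a table in which 65.9% of listed regions were higher. In ATRA 2 of 3 were higher, against 79.1% of the listed regions, and 1 was lower, against 20.9%. The control held 0 reads in 4 of the 6 regions (2 of 3 in each treatment), which was so for 34.7% of the listed regions in DMSO and 37.7% in ATRA. These shares are given for scale, and with 3 regions per table nothing is read from the difference. The authors' log2 fold change had a median of 6.22 over the 6 regions and 2.39 over all 591. With regions at 0 control reads set to their bound against 3 control reads, the medians were 1.69 and 1.43.

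**Figure D1:**
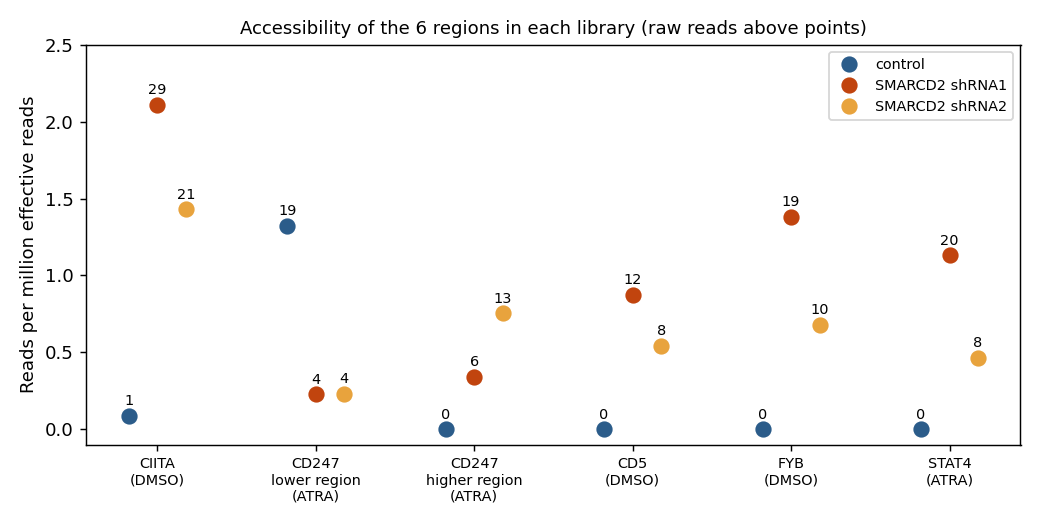
Reads per 1000000 effective reads (CPM, vertical axis) in each of the 6 member regions, with 1 point per library and the raw reads above it. The control (blue) lies below both hairpins in 5 regions and above both in the CD247 lower region, where it holds 19 reads against 4 and 4.

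CIITA, the MHC class II coactivator, had the best covered region of the set. The region lies on chromosome 16 (10965009 to 10965151, GRCh37.p13, 143 bp), 5903 bp from the gene, and the table does not say on which side. In DMSO it held 29 reads with shRNA1, 21 with shRNA2 and 1 in the control. Both hairpins were far above the control and closer to each other than to it. Per 1000000 effective reads of the library (CPM), the knockdown had 1.77 ± 0.483 (SD, n = 2) and the control 0.0870, a ratio 20.2-fold higher in the knockdown (95% exact interval 3.46 to 813, counting error only). The width of that interval comes from the single control read. At the knockdown rate the control library would have held 20.2 reads. In the authors' deposited table the log2 fold change was 4.20 and the p 6.48e-05, which ranked 5 of 323. Among the 14 DMSO regions with exactly 1 control read, the CIITA region had the most knockdown reads, 50 against a median of 31.5, and a region near IQSEC1 had 49. With control reads fixed, that order largely repeats the order of the fold change. Over the DMSO list its deposited fold change ranked 113 of 323, below those of the 112 regions with an empty control. The listed regions with the most similar reads over the 3 DMSO libraries lay near SYNJ2 (26, 20 and 2 reads with shRNA1, shRNA2 and control) and BACH1 (25, 21 and 2), at distances of 0.241 and 0.262 on the log2 scale.

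CD247, which codes for the zeta chain of the T cell receptor and also serves Fc and NK receptors, was the only member with 2 listed regions, and they differed from the control in opposite directions in the same ATRA libraries. Both lie inside the gene on chromosome 1, with 13119 bp between them (GRCh37.p13). The table gives the gene's strand as minus, so the higher region is the one nearer the 5′ side. The lower region (167411471 to 167411598, 128 bp) held 4 reads with shRNA1, 4 with shRNA2 and 19 in the control. The hairpins were level with each other, at 0.227 and 0.232 CPM, and both lay under the control at 1.32. The ratio was 5.77-fold lower in the knockdown (95% exact interval 2.41 to 15.2). On the scale of the authors' normalized counts it was 11.6-fold lower (4.84 to 30.6). The deposited log2 fold change of -2.49 ranked 17 from the most negative among 56 lower regions in ATRA, and the deposited p was 0.0024.

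The higher CD247 region (167424718 to 167424847, 130 bp) held 6 reads with shRNA1, 13 with shRNA2 and 0 in the control. Both hairpins were above the empty control, and shRNA2 was above shRNA1. The knockdown had 0.547 ± 0.292 CPM (SD, n = 2), and 3 reads in the control library would be 0.209. Against that floor the knockdown was 2.61-fold higher (its 95% exact limit from below was 1.92). On the normalized count scale the bound was 1.30-fold and the exact lower limit 0.958, so equal accessibility lies within that interval. Its 19 knockdown reads are the fewest of any of the 101 regions listed in ATRA with 0 control reads, a number it shares with 14 others (15 regions in all), so it sits at the lower edge of what the table lists (deposited p 0.00244).

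A comparison of the 2 CD247 regions within each library does not depend on library size. In the knockdown 19 of the 27 reads in the pair fell in the higher region, a share of 70.4% (95% Clopper-Pearson interval 49.8% to 86.2%). The share was 60.0% with shRNA1 (6 of 10 reads) and 76.5% with shRNA2 (13 of 17). In the control it was 0 of 19 reads. For scale, 3 of those 19 reads would be 15.8%, and the Clopper-Pearson upper limit is 17.6%. A separate bound set the control to 3 reads in the higher region and kept its 19 in the lower one. With it, the knockdown to control ratio was 15.0-fold larger in the higher region than in the lower one. The 95% exact limit from below was 7.93. Over both regions together the level was 0.567 CPM with shRNA1, 0.984 with shRNA2 and 1.32 in the control. Both regions were listed for their difference from the control, so this contrast was fixed in part by that choice and was not tested.

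**Figure D2:**
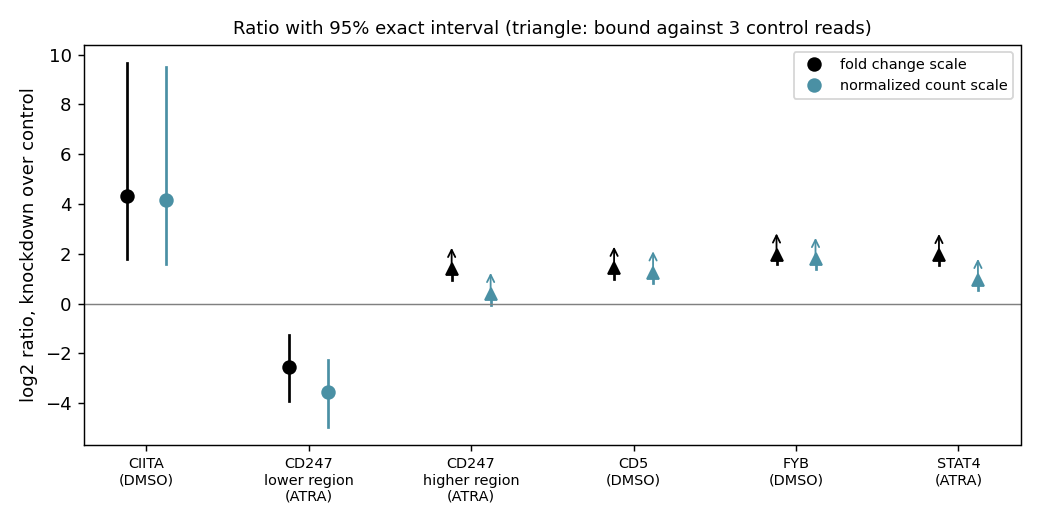
Knockdown over control ratio (log2, vertical axis) of each member region with its 95% exact interval, on the scale behind the authors' fold changes (black) and on that of their normalized counts (blue). Triangles with arrows are bounds against 3 control reads and have no upper limit, and on the normalized count scale the interval of the CD247 higher region reaches below 0.

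CD5, a surface glycoprotein of T cells and a subset of B cells, had a region on chromosome 11 (60867416 to 60867522, GRCh37.p13, 107 bp), 2407 bp from the gene. In DMSO it held 12 reads with shRNA1, 8 with shRNA2 and 0 in the control. Both hairpins were above the empty control by a margin of few reads. The knockdown had 0.708 ± 0.233 CPM (SD, n = 2), 2.69-fold above what 3 control reads would give (exact limit from below 1.99). At the knockdown rate the control would have held 8.08 reads. The deposited log2 fold change was 6.25 and the p 0.00258, which ranked 186 of 323. Regions at 3 other genes, YBX3, MED13L and EMILIN2, held exactly the same reads in all 3 libraries (12, 8 and 0).

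FYB, now named FYB1, codes for the adaptor ADAP, which couples the T cell receptor to integrins. Its region lies inside the gene on chromosome 5 (39177886 to 39178028, GRCh37.p13, 143 bp). In DMSO it held 19 reads with shRNA1, 10 with shRNA2 and 0 in the control. Both hairpins lay above the empty control, with shRNA1 higher than shRNA2. The knockdown had 1.03 ± 0.497 CPM (SD, n = 2), 3.90-fold above that floor (exact limit from below 2.98). The control would have held 11.7 reads at that rate. The deposited log2 fold change was 6.78, the p 0.000262, and the fold change ranked 8 from the top of 323. The most similar listed regions lay in REV3L (18, 8 and 0 reads) and near PAX1 (17, 8 and 0).

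STAT4, the signal transducer of the interleukin-12 receptor, had a region given as inside the gene on chromosome 2 (192023027 to 192023153, GRCh37.p13, 127 bp). In ATRA it held 20 reads with shRNA1, 8 with shRNA2 and 0 in the control. Both hairpins were above the empty control, and shRNA1 was well above shRNA2. The knockdown had 0.799 ± 0.474 CPM (SD, n = 2), 3.84-fold above the floor (95% exact lower limit 2.92). With shRNA2 alone the bound was 2.22-fold, and with shRNA1 alone 5.43-fold. On the normalized count scale it was 1.92-fold above the floor (lower limit 1.46). The deposited log2 fold change was 6.73 and the p 0.00049. The most similar listed region lay in MORN3 (18, 9 and 0 reads).

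The hairpins differed most at STAT4, where shRNA1 gave 2.45 times the CPM of shRNA2 (95% exact interval 1.03 to 6.43), the 1 member interval of 6 that did not hold 1. The same ratio was 2.03 at FYB (0.900 to 4.90), 1.61 at CD5 (0.604 to 4.53) and 1.48 at CIITA (0.814 to 2.73). At the CD247 lower region it was 0.979 (0.182 to 5.26), and at the CD247 higher region 0.452 (0.141 to 1.27). In all 3 DMSO members shRNA1 thus gave more than shRNA2, as in 49.2% of the listed DMSO regions, and in ATRA this held for 1 of 3, against 40.7%. Listing did not require alike hairpins: DMSO regions with an empty control and 18 knockdown reads were listed with 9 and 9 reads (shRNA1 and shRNA2, MAP3K5) as well as with 17 and 1 (OR8G1).

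**Figure D3:**
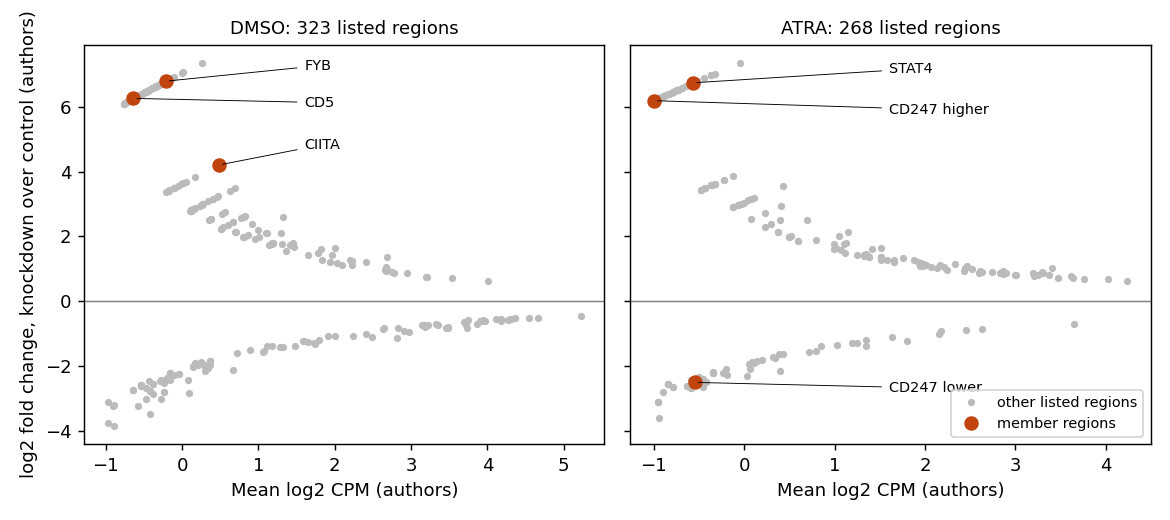
The authors' log2 fold change (vertical axis) against their mean log2 CPM (horizontal axis) for every listed region in DMSO (left, 323) and ATRA (right, 268), with the 6 member regions in red. CD5, FYB, STAT4 and the CD247 higher region lie in the upper band formed by regions with 0 control reads, while CIITA, with 1 control read, lies below that band at 4.20.

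The 4 regions with 0 control reads were ordered FYB, STAT4, CD5 and CD247 by their bounds, from 3.90-fold to 2.61-fold, and their control libraries would have held 11.7 to 7.82 reads at the knockdown rate. Regions of this kind held 18 to 43 knockdown reads in DMSO, with a median of 21, and 19 to 43 in ATRA, also with a median of 21. CD5 with 20 reads and the CD247 higher region with 19 were under those medians, and FYB with 29 and STAT4 with 28 were above them. The deposited log2 fold changes of these 4 regions, 6.18 to 6.78, rest on the small prior count that a fit adds to an empty library. They are not measures of size, and the bounds are given for that reason.

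**Figure D4:**
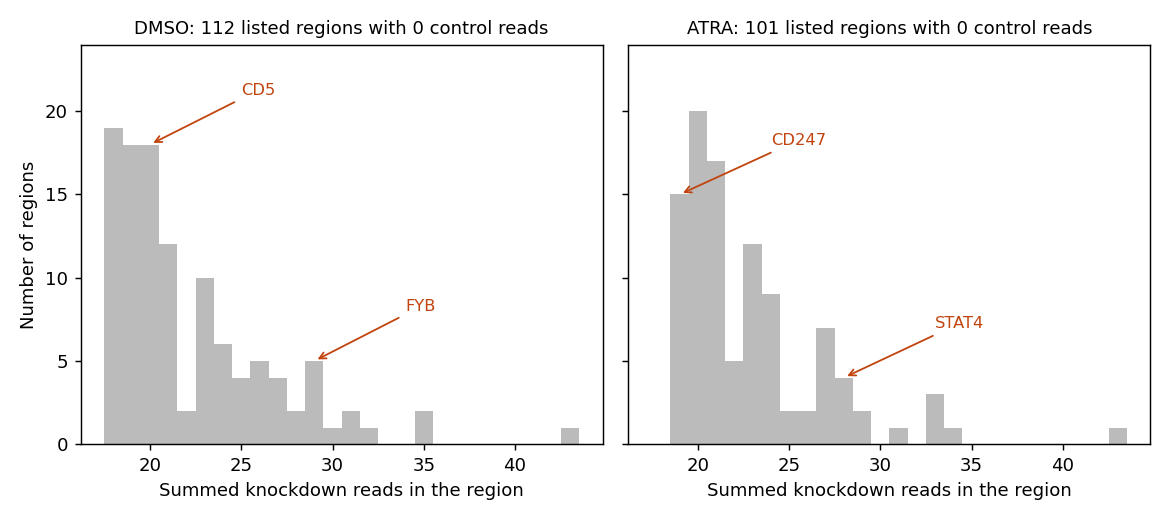
Number of listed regions (vertical axis) by summed knockdown reads (horizontal axis) among those with 0 control reads, in DMSO (left, 112 regions) and ATRA (right, 101 regions). Arrows mark CD5 (20 reads), FYB (29), the CD247 higher region (19) and STAT4 (28), of which the CD247 region is in the lowest class listed in ATRA.

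The member regions were 107 to 143 bp wide, where the median listed region was 141 bp wide in DMSO and 149 bp in ATRA. The CIITA and FYB regions, at 143 bp, were wider than 50.5% of the DMSO list, and the others were under the median of their list. They held 19 to 51 reads over their 3 libraries, where the medians over the listed regions were 37 and 33. Per 100 bp of region the CIITA region held 35.7 reads, more than 67.8% of the DMSO list, and the other 5 were under the median of their list, down to 14.6 reads for the CD247 higher region. Of the 6 regions, 4 were given as inside their gene, by a deposited distance of 0 bp (77.1% of the DMSO list and 81.3% of the ATRA list were). Whether these are intronic, exonic or untranslated was not analysed here.

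No member gene was listed in both treatments, as was so for most listed genes: 11 of 569 (1.93%) were in both tables. The DMSO region nearest to the CD247 pair was 6.42 Mb away, near F11R, and the ATRA region nearest to CIITA was 6.96 Mb away, near ADCY9. For CD5 the nearest ATRA region was 5.32 Mb away (NPAS4), for FYB 18.6 Mb (PLK2), and for STAT4 the nearest DMSO region was 1.72 Mb away (WDR75). Within the same table the closest neighbour of FYB was a region near EGFLAM at 898 kb with 14, 6 and 0 reads (shRNA1, shRNA2, control). The nearest for the others, apart from the CD247 pair, lay 3.69 Mb (CIITA, a region near PARN), 5.17 Mb (CD5, near RAB1B) and 8.92 Mb (STAT4, near PDE1A) away. Reads of a member region in the treatment whose table does not list it were not analysed here, so no difference between DMSO and ATRA can be given for any of the 5 genes.

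For the other genes of these pathways, the background is the 2.82% of protein-coding genes (566 of 20052 in RefSeq) that had a listed region in either table. The 5 members were chosen because they were listed, so counts that hold them are not set against it. The T cell receptor signalling list holds 45 gene symbols, with FYB entered under both its old and its new symbol (FYB1). Of these, 4 were listed: the members CD247, CD5 and FYB, and SKAP1, whose product binds ADAP. The SKAP1 region, inside the gene, held 9 reads with shRNA1, 12 with shRNA2 and 0 in the control in DMSO and was at least 2.83-fold higher (95% exact lower limit 2.10). SKAP1 and FYB were both higher in DMSO with an empty control, as were 34.7% of the listed DMSO regions, and 65.9% were higher. FYB was chosen because it was listed, so nothing is read from the pair. The CD3 chains, LCK, ZAP70 and LAT were among the 41 symbols of that list with no listed region, which include the symbol FYB1. In the JAK-STAT list 2 of 27 genes were listed, STAT4 and IFNAR2, a chain of the type I interferon receptor. The IFNAR2 region held 2, 9 and 21 reads in DMSO and was 4.73-fold lower (2.18 to 10.9). CIITA was the 1 listed gene of 21 in the MHC class II list, with no region at the HLA class II genes, CD74 or RFX5 in either table. Of 15 genes for Fc and NK receptors and their partners, and of 17 genes of MHC class I, 0 were listed. Over all 5 lists, 6 regions were higher and 2 lower, or 75.0% higher against 71.9% of all 591 listed regions. The median authors' log2 fold change of these 8 regions was 6.22, or 1.46 with empty controls at their bound, against 2.39 and 1.43 over all listed regions. Of these 8 regions, 6 are the member regions themselves, so the shares and medians are given for scale and nothing is read from them. The fitted median of 6.22 rests on the 5 regions of 8 with an empty control. Reads near genes without a listed region were not analysed here.

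Markers that define cell types gave little to check the label of the line against, since the tables hold differing regions only and 2.82% of all protein-coding genes had one. Of 7 promyelocyte markers 1 was listed: AZU1, with a region 3908 bp away that held 20, 15 and 1 reads in DMSO and was 14.1-fold higher (2.38 to 574). Of 8 T cell markers 1, the member CD5, was listed, and 0 of 5 B cell, 0 of 4 NK cell, 0 of 4 monocyte, 0 of 3 dendritic cell and 0 of 3 erythroid markers were. Whether cells of another type were present was not tested.

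The sequences of the regions themselves were not used here. Promoter sequences are printed for the 3 member genes that RefSeq's promoter table covers (CD247, FYB under its symbol FYB1, and STAT4). Each of these has a higher region with an empty control, as does CD5, for which no promoter is printed. They show the 250 bases before the outermost start (GRCh38.p14, a build other than that of the regions, all on the minus strand). Whether a listed region overlaps these windows was not analysed here, since the builds differ. Capitals mark matches to motifs that fewer than 50% of all promoters hold.

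CD247 promoter, chr1:167518530-167518779: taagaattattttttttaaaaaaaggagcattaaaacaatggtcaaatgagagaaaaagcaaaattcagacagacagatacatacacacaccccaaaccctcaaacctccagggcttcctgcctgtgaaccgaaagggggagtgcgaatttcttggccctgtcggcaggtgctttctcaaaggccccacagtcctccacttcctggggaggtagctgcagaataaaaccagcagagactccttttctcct
FYB promoter, chr5:39270650-39270899: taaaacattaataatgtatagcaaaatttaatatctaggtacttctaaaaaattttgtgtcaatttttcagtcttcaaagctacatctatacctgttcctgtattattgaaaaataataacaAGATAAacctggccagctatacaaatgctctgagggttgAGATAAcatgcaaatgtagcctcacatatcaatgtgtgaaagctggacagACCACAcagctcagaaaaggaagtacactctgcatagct
STAT4 promoter, chr2:191151597-191151846: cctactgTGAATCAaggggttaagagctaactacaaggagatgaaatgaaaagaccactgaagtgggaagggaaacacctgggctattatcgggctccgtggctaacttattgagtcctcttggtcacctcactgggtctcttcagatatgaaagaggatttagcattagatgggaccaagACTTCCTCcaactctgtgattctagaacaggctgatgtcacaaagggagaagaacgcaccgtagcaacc

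The search covered 10 motifs on both strands of the same 250 bases in 35116 promoters. The FYB promoter held the GATA motif AGATAA at 2 places (9.17% of promoters hold it) and the RUNX motif TGTGGT at 1 place (11.0%), read on the opposite strand. The STAT4 promoter held the PU.1 motif GAGGAAGT at 1 place (2.17%), also on the opposite strand, and the AP-1 motif TGANTCA at 1 place (6.57%). The CD247 promoter held no match to these 4. None of the 3 promoters matched CEBP (TTGCGCAA, 0.131%), the retinoic acid receptor core site (AGGTCA, 12.1%), GAS (TTCNNNGAA, 6.57%) or CRE (TGACGTCA, 1.65%). The ETS core GGAA, which lies within the PU.1 motif and is held by 92.7% of promoters, had 2, 2 and 3 matches in CD247, FYB and STAT4, and the E box CANNTG (61.8%) had 2, 2 and 1. A match is a run of letters and no evidence of binding.

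The p-values that put these regions in the tables are unadjusted. The relation between the authors' F and p corresponds to 54588 regions tested in DMSO and 49695 in ATRA. That reading assumes that the authors' fit pooled its error over all regions, with a single degree of freedom from each. The processing notes do not state it. Adjusted over those numbers by the Benjamini-Hochberg method, with ranks among the listed regions alone, the authors' edgeR p-values of the 6 members became at most 0.439 (CIITA), 0.534 (FYB), 0.745 (CD5) and 0.746 (both CD247 regions and STAT4), and 0 of 6 were under 0.05. Given those numbers of regions, the adjusted values are upper bounds, since regions that the tables leave out could raise the ranks.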

How the data were processed

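ATAC-seq was performed in 6 NB4 libraries, grouped by title. The submitters' processing notes name the tools MACS2, edgeR, STAR, bcl2fastq and Picard 2.5.0 and the build GRCh37.p13, without their roles or settings. Per the file headers, the authors deposited raw read counts per region and library, normalized counts (a signal), log2 fold change and mean log2 CPM, an F score and an unadjusted p-value. The p-values reach 0.00499 (DMSO) and 0.00498 (ATRA), and regions lie up to 9992 bp from a gene.

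The authors' normalized counts equal the raw counts over median-of-ratios size factors computed on the listed regions alone (largest relative difference 1e-05 in DMSO and 8e-06 in ATRA). Relative to the deposited fold changes, that scale shrinks a knockdown to control ratio by 1.14 times (DMSO) or 2.01 times (ATRA). Effective library sizes behind the fold changes were recovered by least squares with edgeR 4.0.16 in R 4.3.3 (prior counts 0.125 and 2), tested on simulated data, and gave back the deposited log2 fold changes within 0.00657 (DMSO) and 0.00174 (ATRA). They were 11497000 reads for the DMSO control, 13747000 and 14718000 for shRNA1 and shRNA2 in DMSO, and likewise 14373000, 17632000 and 17268000 in ATRA. The listed regions held 11001 to 12982 reads per library in DMSO and 5530 to 11371 in ATRA.

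Ratios are summed knockdown reads over control reads, each per effective library size, with 95% exact (Clopper-Pearson) intervals from scipy 1.17.1 that cover counting error only. An empty control was set to 3 reads, which gives a bound. Similarity is the Euclidean distance of log2(CPM + 0.5) over 3 libraries, with CPM the reads per 1000000 effective reads. All member regions, the 2 regions most similar to each, the nearest listed region and every listed gene of the lists are named, except 1 similar region that is not reported here, and IQSEC1, EMILIN2, MAP3K5 and OR8G1 were named after their values were seen. Members and lists were chosen with earlier results of these data known. Ratios were repeated with other scales, another floor and without each hairpin. No count test was run, since the tables were selected on the same contrast.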

Additional observations from a re-analysis of the deposited data

How the results depend on the processing

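The direction of all 6 member ratios was kept under every alternative run, each of which changed 1 setting. Combinations of settings, such as another scale without a hairpin, were not run. On the scale of the authors' normalized counts, the CD247 lower region went from 5.77-fold to 11.6-fold lower, and with TMM factors over the listed regions to 10.6-fold. Median-of-ratios factors over the listed regions are the same scale as the normalized counts, so they gave the same values by construction. The other 5 moved by less than the spread between hairpins under these scales, although the bounds of the ATRA members fell by more than 1.5 times: the CD247 higher region to 1.30-fold (1.42-fold with TMM) and STAT4 to 1.92-fold (2.09-fold with TMM). With a floor of 1 control read the bounds rose to 7.82-fold (CD247 higher region), 8.08-fold (CD5), 11.7-fold (FYB) and 11.5-fold (STAT4), by construction 3 times those reported. Without 1 hairpin, the ratios ranged from 16.4 to 24.3 (CIITA), 5.71 to 5.83 (CD247 lower region), 1.63 to 3.61 (CD247 higher region), 2.08 to 3.35 (CD5), 2.60 to 5.30 (FYB) and 2.22 to 5.43 (STAT4), and the comparison of the CD247 regions from 9.50 to 20.6. The CD247 higher region is 1.63-fold higher without shRNA2, and STAT4 2.22-fold and FYB 2.60-fold without shRNA1. The ratio of shRNA2 to shRNA1 at the CD247 lower region, 1.02, became 0.901 on the normalized count scale. Restricting the pathway lists to regions inside a gene or within 5000 bp removed CIITA and left 6 of 7 listed genes. The control libraries could not be left out, having no replicate. No paired analysis was possible because each treatment has 1 control library, so no hairpin has a control of its own. The member regions hold 19 to 51 reads each, which sets the width of the intervals given.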
